A study of Mus musculus with 1931 samples.

Results

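Elf5, Hand1, Plet1, Gata2, Tfap2a, Gcm1 and Esx1 were followed as regulators of trophoblast stem cells and of their first steps of differentiation. They were chosen by name, with earlier results of these data known, and all 7 had a row among the 20999 genes of the table. Of 1931 wells, 39 held no value, and 1406 were kept as cells because at least 2500 genes were above 0. Values are given as TP10k, the deposited TPM (transcript abundance scaled to a fixed sum per library) rescaled so that the genes of each cell sum to 10000. TPM already accounts for transcript length, so levels of different genes can be set side by side.

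RtL-embryoids (Rosette-to-Lumen stage embryo-like structures) were built by mixing 3 mouse embryonic stem cell (ESC) lines. Kermit ESCs, which carry an Oct3/4-GFP reporter and no inducible factor, were meant to give the epiblast-like (Epi) compartment, mCherry iGATA6 ESCs, with a doxycycline-inducible *Gata6*, the visceral endoderm-like (VE) one, and 5-Factor ESCs, with inducible *Cdx2*, *Tfap2c*, *Eomes*, *Gata3* and *Ets2*, the extraembryonic ectoderm-like (ExE) one. That the ExE and VE compartments descend from these lines is the study's reading and was not tested here. All received 2 µg/ml doxycycline for 3 days and were harvested after 24 h without it, so the Epi cells of the 3D experiment saw the drug as well. Hand-picked structures were pooled and sorted on GFP, mCherry and the surface protein CD40 into plates 3, 4 and 5. Plate columns 1 to 8 are called here the Epi wells (31.98% of the 982 cells of the 3D experiment), columns 9 to 16 the VE wells (32.08%) and columns 17 to 24 the ExE wells (35.95%). The labels give the well address and not the sort gate. The 2D cultures were Kermit ESCs in 2i/LIF without doxycycline (33.49% of 424 cells), iTSC induced from 5-Factor ESCs in FGF4 and heparin medium conditioned by feeder fibroblasts (33.25%), and iXEN cells induced from iGATA6 ESCs (33.25%). The iTSC and iXEN cultures also received 2 µg/ml doxycycline for 3 days and were harvested after 24 h without it. They thus differ from the 2D ESC in the drug, the cell line and the medium. Each 2D culture came from 1 plate, and the 3 plates of the 3D experiment hold cells of a single pool. There was thus 1 sample per group, no test between groups could be made, and the spread over plates 3, 4 and 5 is technical.

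Trophoblast stem cells keep themselves through a network of transcription factors in which Elf5 stands beside Cdx2, Eomes and Tfap2c, and *Elf5* is known as a gene whose promoter is methylated in ESCs and open in the trophoblast lineage. The surface protein Plet1 marks trophoblast progenitors. Hand1, a bHLH factor, is needed for giant cells, and the homeobox factor Esx1 and the zinc finger factor Gcm1 are known from the labyrinth layer of the placenta, where Gcm1 starts the formation of syncytiotrophoblast. Gata2 acts with Gata3 in trophoblast, and Tfap2a belongs to the same AP-2 family as the transgene-encoded Tfap2c.

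By Gencode vM21 (GRCm38) the protein-coding genes lie at chr2:103411688-103450989 (*Elf5*, plus strand), chr11:57828705-57832818 (*Hand1*, minus), chr9:50494525-50505482 (*Plet1*, plus), chr6:88193891-88207032 (*Gata2*, plus), chr13:40715302-40738376 (*Tfap2a*, minus), chr9:78051924-78065624 (*Gcm1*, plus) and chrX:137115397-137122083 (*Esx1*, minus). RefSeq promoter sequences (GRCm38.p6) were matched for 6 of the 7. The 250 bases before a start of transcription are shown for *Elf5* (its downstream start, chr2:103423818-103424067, plus strand), *Plet1* (chr9:50494275-50494524, plus) and *Esx1* (chrX:137120327-137120576, minus), 3 regulators that were found in the same cells below. They lie outside the annotated exons of these genes except for 6 bases of *Elf5*. Capitals mark letters that match, on either strand, one of 5 short motifs of the families of the ExE line's transgenes: AGGTGT for the T-box family of Eomes, TTTATG for CDX factors, GCCNNNGGC for AP-2 factors, AGATAA for factors like Gata3 and CCGGAA for the family of Ets2.
Elf5: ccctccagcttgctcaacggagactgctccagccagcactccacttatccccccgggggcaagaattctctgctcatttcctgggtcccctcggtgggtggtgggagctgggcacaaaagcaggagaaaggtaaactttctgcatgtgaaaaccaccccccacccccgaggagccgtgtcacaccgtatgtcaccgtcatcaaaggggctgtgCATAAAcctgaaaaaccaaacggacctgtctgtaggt
Plet1: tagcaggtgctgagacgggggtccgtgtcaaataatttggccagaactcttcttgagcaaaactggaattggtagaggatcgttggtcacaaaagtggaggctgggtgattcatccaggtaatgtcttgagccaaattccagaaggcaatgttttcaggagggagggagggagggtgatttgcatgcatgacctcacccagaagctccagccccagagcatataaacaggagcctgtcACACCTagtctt
Esx1: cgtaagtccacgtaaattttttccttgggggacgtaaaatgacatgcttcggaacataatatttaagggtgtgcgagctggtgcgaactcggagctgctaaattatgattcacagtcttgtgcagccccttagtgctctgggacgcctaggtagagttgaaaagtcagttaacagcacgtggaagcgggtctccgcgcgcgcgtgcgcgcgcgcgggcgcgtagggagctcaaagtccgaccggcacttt
The capitals in *Elf5* are the CDX letters read on the opposite strand, beginning 37 bases before the start. Those in *Plet1* are the T-box letters on the opposite strand, beginning 12 bases before it. No capitals stand in *Esx1*, which says only that these letters are not in this window. Over all 32851 promoter windows of this length the T-box letters occurred in 11.8%, the CDX letters in 10.8%, the AP-2 letters in 13.7%, the letters for Gata3-like factors in 9.99% and the Ets2 family letters in 12.03%. None of the motifs overlapped another in these 3 windows. *Esx1* had 24 CG dinucleotides here, *Elf5* 8 and *Plet1* 3, against a median of 6 (quartiles 2 and 16) over all windows.

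The bands of plate columns carried the markers of their names. All 7 epiblast markers were highest in the Epi wells among the 3D bands, all 8 VE markers in the VE wells and all 9 ExE markers in the ExE wells. The summed ExE marker level had a median of 3.46 TP10k in the ExE wells (quartiles 1.08 and 8.86), 0.175 in the Epi wells and 0.185 in the VE wells, and 7.86 in 2D iTSC. In 17 ExE wells, at least 3 of *Pou5f1*, *Tdgf1*, *Gdf3* and *Fgf4* or at least 5 of the 8 VE markers were above 0, and results that rest on them are given also without them. By the mean of log-transformed levels over each list, rather than the sum, 44.2% of the ExE wells had the ExE list below the Epi or the VE list. Their own list lay below another in 8 VE wells and no Epi well. The Epi list holds *Utf1* and *Zfp42*, which were above 0 in 39.1% and 89.5% of the ExE wells, while its member *Fgf4* was listed at 0 in all of them. Without the wells of that 44.2%, a choice that uses ExE marker levels, the shares of ExE wells were 44.7% for *Elf5*, 39.6% for *Hand1*, 44.7% for *Plet1*, 24.9% for *Gata2* and 43.7% for *Esx1*, in place of those given below. Fibroblast markers were all under 0.1 TP10k in every group. In the ExE wells, 7 of 8 markers of extraembryonic mesoderm and amnion were under that level, with *Pitx1* at 0.116 TP10k. So were 5 of 6 surface ectoderm markers, with *Grhl3* at 0.280 TP10k there and 0.378 in iTSC. Of 8 parietal endoderm markers 3 were under it, and the highest was *Sparc* at 4.26 TP10k, against 59.9 in the VE wells. The median number of genes above 0 per cell was 4823 in the Epi wells, 5348 in the VE wells and 5396 in the ExE wells, against 9093.5, 8537 and 8699 in 2D ESC, iTSC and iXEN. TPM keeps no read depth, so this number stands in for it, and a share of cells above 0 is read beside the mean level because deeper cells show more traces.

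*Elf5* was a gene of the ExE wells and of iTSC. Its mean was 0.630 TP10k in the ExE wells (0.397, 0.736 and 0.772 on plates 3, 4 and 5) and 0.940 in iTSC. It was 0.0134 in the Epi wells (0.0303, 0.00219 and 0.00851), 0.0227 in the VE wells (0.0506, 0.00318 and 0.0123), 0.00574 in 2D ESC and 0.00418 in iXEN. Every plate of the ExE wells thus lay above every plate of both other bands. The share of all genes that separate over plates in this way was not counted, here or for the regulators below. In the ExE wells 33.7% of cells (exact 95% interval 28.8 to 38.9, counting error only) had *Elf5*, with a median of 1.10 TP10k in those cells. In 2D ESC, a cell type that should lack it, 40.1% of cells were above 0, but with a median of 0.00983 TP10k in those cells. Counted from 0.1 TP10k upwards, *Elf5* was in 24.6% of ExE wells, 69.5% of iTSC, 0.704% of 2D ESC and in none of the iXEN cells, which allows a share of up to 2.13%. The ESC above 0 thus held traces, and the level, more than the share above 0, set the groups apart.

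**Figure D1:**
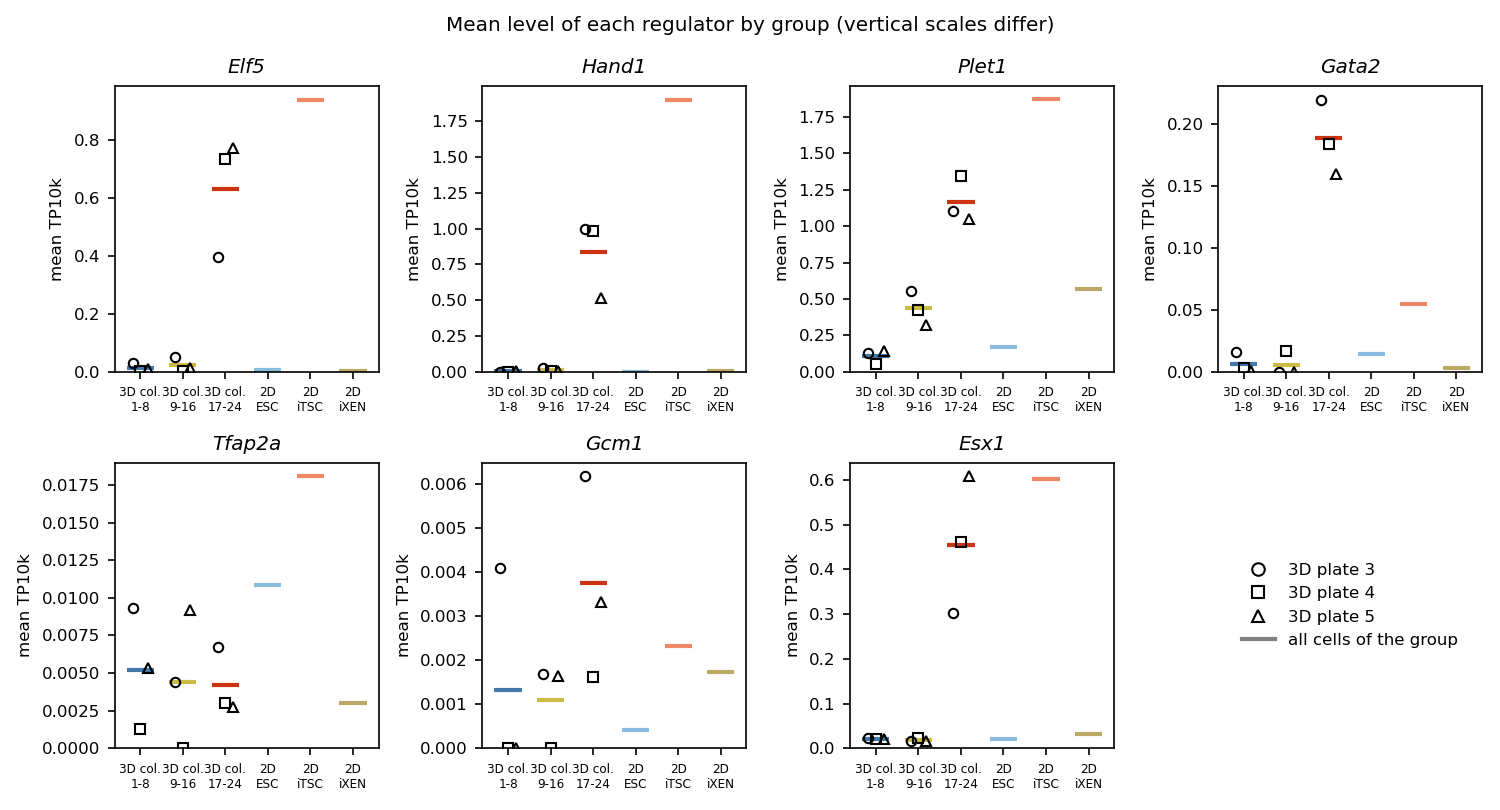
Mean level of the 7 regulators (TP10k, linear axes from 0 with a scale of its own in each panel) in the 3 bands of the 3D experiment and the 3 2D cultures; coloured lines are means over all cells of a group, open symbols are plates 3, 4 and 5. *Elf5*, *Hand1*, *Plet1* and *Esx1* were highest in iTSC and next in the ExE wells, *Gata2* was highest in the ExE wells (0.188 TP10k), and *Tfap2a* and *Gcm1* stayed under 0.02 TP10k in every group.

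*Hand1* had the sharpest pattern of the 7. The mean was 0.838 TP10k in the ExE wells (0.998, 0.983 and 0.518 on plates 3, 4 and 5) and 1.90 in iTSC. In the Epi wells it was 0.00345 (3 cells), in the VE wells 0.0124 (6 cells), in 2D ESC 0.000587 (2 cells) and in iXEN 0.00397 (5 cells). The ExE plates did not overlap with those of the other bands. Of the ExE wells 27.2% (22.6 to 32.2) had the gene, against 84.4% (77.3 to 89.96) of iTSC. Unlike *Elf5*, *Hand1* was rarely found as a trace: 94 of the 96 ExE wells that had it were at 0.1 TP10k or more.

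*Esx1*, on the X chromosome, followed *Elf5*. Its mean was 0.454 TP10k in the ExE wells (0.302, 0.460 and 0.609 on plates 3, 4 and 5) and 0.601 in iTSC, and between 0.0180 and 0.0313 in the other 4 groups. In those 4 the order was iXEN, Epi wells, ESC and VE wells, and the plates of the Epi wells (0.0217 to 0.0223) lay within those of the VE wells (0.0152 to 0.0227). It was found in 35.4% of the ExE wells (30.4 to 40.6) and in 82.98% of iTSC. Of the ExE plates, plate 5 alone reached the iTSC mean, through 1 cell at 21.1 TP10k without which its mean was 0.428 TP10k, below those of plate 4 and of iTSC.

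*Plet1* was the most abundant of the 7 in the ExE wells. It was also the least restricted to them among *Elf5*, *Hand1*, *Plet1*, *Gata2* and *Esx1*. The mean was 1.17 TP10k in the ExE wells (1.11, 1.35 and 1.05 on plates 3, 4 and 5), 0.437 in the VE wells (0.552, 0.425 and 0.320) and 0.110 in the Epi wells (0.132, 0.0553 and 0.144). The 3 bands did not overlap over plates. In 2D it was 1.87 in iTSC, 0.571 in iXEN and 0.169 in ESC, the same order as the 3D bands. By share the order of the bands was another: *Plet1* was above 0 in 43.8% of VE wells (38.3 to 49.5) and in 35.98% of ExE wells (30.97 to 41.2), whose intervals overlap. The VE wells held it in many cells at a lower level (median 0.838 TP10k where present) and the ExE wells in somewhat fewer at a higher one (1.62 TP10k).

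*Gata2*, unlike the 4 above, had a higher mean in the ExE wells than in iTSC. The ExE mean was 0.188 TP10k (0.219, 0.183 and 0.160 on plates 3, 4 and 5), against 0.0549 in iTSC, 0.0143 in ESC, 0.00645 in the Epi wells, 0.00573 in the VE wells and 0.00337 in iXEN. It was found in 58 ExE wells (16.4%, 12.7 to 20.7), with 20.5%, 19.7% and 8.77% on plates 3, 4 and 5. In iTSC it was in 20 cells (14.2%, 8.88 to 21.1). The intervals of the shares over all cells overlap, while the level in the cells that had it differed (median 0.568 against 0.191 TP10k). The value of the VE wells came from a single cell at 1.80 TP10k on plate 4, and the gene was listed at 0 on plates 3 and 5. In the ExE wells the 18 highest cells held 75.6% of its summed level, and without the 1 cell at 7.80 TP10k the mean of plate 5 was 0.0921 TP10k.

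*Tfap2a* and *Gcm1* were close to absent. *Tfap2a* reached means between 0.00298 and 0.0181 TP10k, the highest in iTSC, and the ExE wells (0.00423) lay within the range of the Epi plates (0.00127 to 0.00933). Its share of 40.1% in 2D ESC was again one of traces, with a median of 0.0143 TP10k where present and 1.41% of cells at 0.1 TP10k or more. *Gcm1* had means between 0.000413 and 0.00375 TP10k, the highest in the ExE wells before iTSC (0.00232), and it was found in 9 ExE wells (2.55%, 1.17 to 4.78) and at 0.1 TP10k or more in 5 of them. A 0.1 TP10k level of *Gcm1* was seen in none of the iTSC, which allows a share of up to 2.13%.

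**Figure D2:**
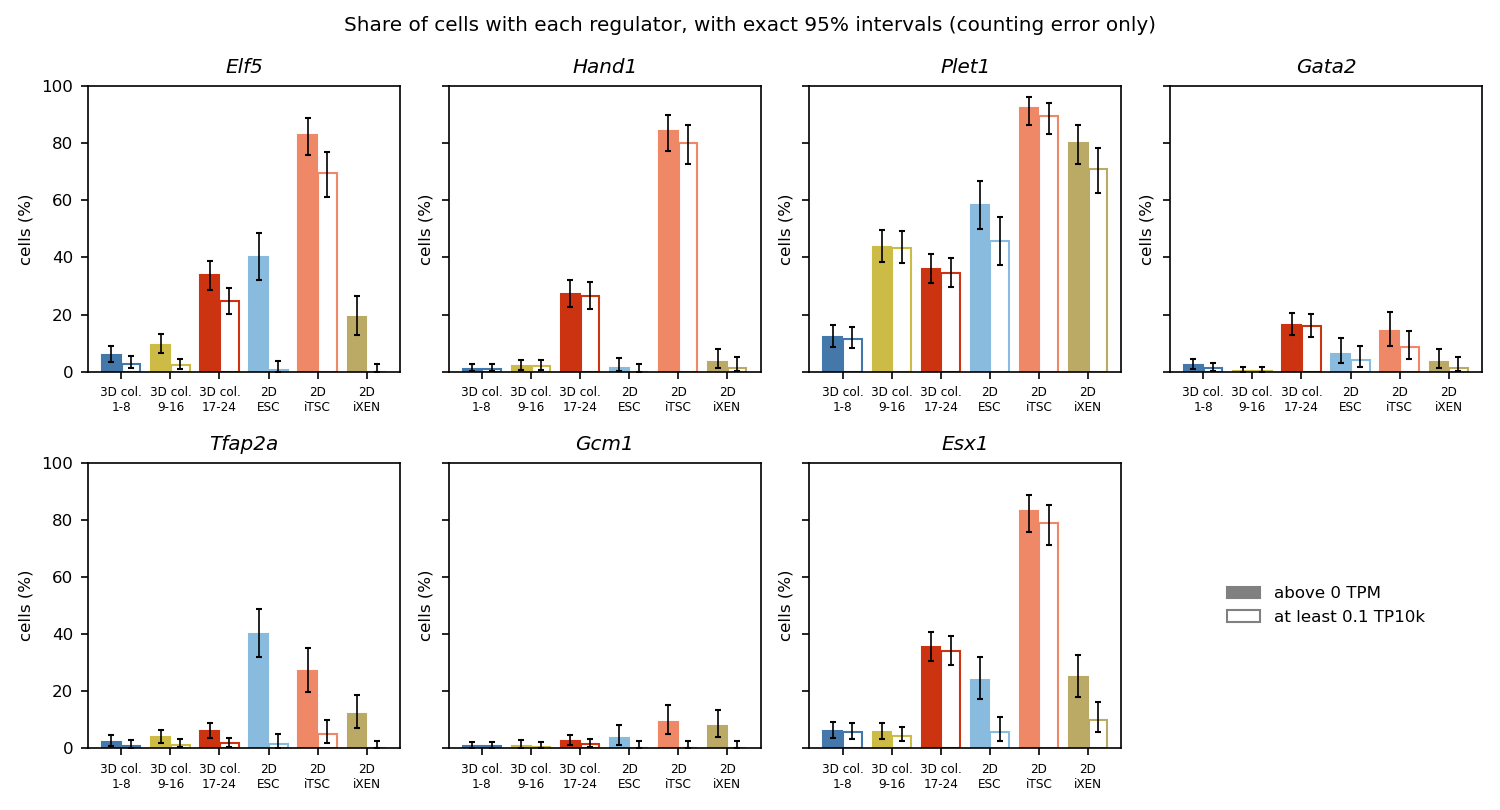
Share of cells (percent) with each regulator above 0 TPM (filled bars) and at 0.1 TP10k or more (open bars) in the 6 groups; lines are exact 95% intervals that cover counting error only. The filled and open bars differ most for *Elf5* (40.1% and 0.704%) and *Tfap2a* (40.1% and 1.41%) in 2D ESC, and hardly for *Hand1* in the ExE wells (27.2% and 26.6%).

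The ExE wells were compared with the Epi and VE wells to ask how far the regulators follow the compartment. A gene was called where its mean was at least 2-fold higher on each of plates 3, 4 and 5, among genes above 0 in 10% or more of the cells of one band or the other. Against the Epi wells 5 of the 7 regulators passed the filter and all 5 of those were called higher, against a background of 9.92% of 10886 genes. A gene that passes through the ExE wells alone had to be higher there, so this count is no support by itself. The log2 ratios were 7.92 for *Hand1* (9.93, 9.18 and 6.10 on plates 3, 4 and 5), 5.56 for *Elf5* (3.71, 8.39 and 6.50), 4.87 for *Gata2* (3.801, 5.82 and 7.54), 4.37 for *Esx1* (3.76, 4.40 and 4.81) and 3.41 for *Plet1* (3.06, 4.60 and 2.87). The lower means rest on few Epi cells, 18 with *Elf5*, 3 with *Hand1* and 7 with *Gata2*, and without the cell of highest *Elf5* (1.60 TP10k) the Epi mean was 0.00829 TP10k. *Tfap2a* and *Gcm1* did not reach the filter.

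Against the VE wells the same 5 were called, with 10.2% of 10836 genes called higher. All but *Plet1* passed the filter through the ExE wells alone, so this count is no support by itself either. The log2 ratios were 6.08 for *Hand1*, 4.79 for *Elf5*, 4.66 for *Esx1* and 1.42 for *Plet1*. *Plet1* stood at 1.003, 1.66 and 1.71 on the 3 plates, so plate 3 lay at the 2-fold limit. *Gata2* had a log2 ratio of 5.04 that rests on the 1 VE cell named above. Both comparisons share the ExE wells. Without the 17 ExE wells that carried other markers, the *Plet1* log2 ratio was 1.43 against the VE wells and 3.42 against the Epi wells.

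In the 2D cultures, iTSC were compared with ESC and with iXEN cells, with 1 plate in each group and therefore no spread. Against ESC 5 of 6 regulators that passed the filter were called higher, with 22.3% of 13788 genes called; the exception was *Tfap2a* with a log2 ratio of 0.74. *Hand1* had a log2 ratio of 11.66, which rests on 2 ESC cells, and *Elf5* 7.35, *Esx1* 4.92, *Plet1* 3.47 and *Gata2* 1.94. Against iXEN all 6 that passed were called higher, with 21.1% of 13450 genes called, and the ratios ran from 1.71 (*Plet1*) to 8.90 (*Hand1*). *Hand1* and *Gata2* passed the filter through iTSC alone in both comparisons, so these counts are no support by themselves either. Among the regulators that passed the filter, *Plet1* had the smallest ratio to the endoderm-like cells in 3D and in 2D. *Gcm1* did not reach the filter in either.

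The iTSC come from the 5-Factor ESCs, to which the study also traces the ExE compartment, and their comparison asks how the regulators differ between the 3D structures and a 2D culture with FGF4. The culture cannot be told apart from the plate and from the depth of the cells. Of 6 regulators tested, *Gata2* was called higher in the ExE wells (log2 ratio 1.78 with 2.00, 1.74 and 1.54 on the 3 plates, where 6.42% of 13012 genes were called higher). Without the cell at 7.80 TP10k the plate 5 mean of 0.0921 TP10k was less than 2-fold above the iTSC mean of 0.0549, so the call on every plate rests on that cell. *Tfap2a* was called lower (-2.10, where 8.77% of genes were called lower), from values of 0.00423 and 0.0181 TP10k, and it passed the filter through iTSC alone. *Hand1* (-1.18), *Plet1* (-0.68), *Elf5* (-0.58) and *Esx1* (-0.41) were not called, although all but the *Esx1* value of plate 5 (0.02) were below 0 on every plate. The plates of *Hand1* lay at -0.93, -0.95 and -1.88.

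The shares of those 4 regulators differed more than their means. *Hand1* was in 27.2% of ExE wells and 84.4% of iTSC, *Elf5* in 33.7% and 82.98%, *Esx1* in 35.4% and 82.98% and *Plet1* in 35.98% and 92.2%, while the median level in cells with the gene was not lower in the ExE wells for *Hand1* (2.15 against 1.63 TP10k), *Elf5* (1.10 against 0.645) or *Plet1* (1.62 against 1.32), and was 0.596 against 0.627 for *Esx1*. In cells with 5000 to 8000 genes, 59.8% of the ExE wells and 31.9% of the iTSC, the shares were 33.2% and 77.8% for *Hand1*, 40.8% and 73.3% for *Elf5*, 41.2% and 73.3% for *Esx1* and 43.6% and 84.4% for *Plet1*. Numbers of genes were not matched within that range, and their part in the gap was not tested. The *Gata2* log2 ratio fell to 0.95 in that range.

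Within the ExE wells, the regulators were found in the same cells more often than the product of their shares gives. *Hand1* and *Plet1* were together in 76 cells, where the product gives 34.5, and *Plet1* was in 79.2% of cells with *Hand1* and in 19.8% of cells without it. *Elf5* and *Hand1* were together in 67 cells (product 32.4), and *Elf5* was in 69.8% of cells with *Hand1* and in 20.2% without. *Hand1* and *Esx1* shared 72 cells (product 33.99), *Elf5* and *Plet1* 75 (42.8), *Plet1* and *Esx1* 75 (44.97) and *Elf5* and *Esx1* 72 (42.1). All 10 pairs among *Elf5*, *Hand1*, *Plet1*, *Gata2* and *Esx1* lay above the product, by 1.64 to 2.20 times, and by 1.25 times or more on each plate.

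*Gata2* was in fewer cells than the other 4. It shared 32 cells with *Elf5* (product 19.6), 30 with *Hand1* (15.8), 37 with *Plet1* (20.9) and 36 with *Esx1* (20.5). Of the cells with *Gata2*, 63.8% had *Plet1*, 62.1% *Esx1*, 55.2% *Elf5* and 51.7% *Hand1*. Of the cells with *Hand1*, 31.2% had *Gata2*. The 11 pairs that involve *Tfap2a* or *Gcm1* held 0 to 12 cells each and 6 of them lay above the product.

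The cells with a regulator had more genes above 0, with a median of 5810 with *Elf5* and 5211 without, and 5800 with *Hand1* and 5221 without. Within 3 classes of the cells by number of genes (2526 to 4832, 4835 to 5935 and 5944 to 8409), the 10 pairs were found together 1.46 to 2.03 times as often as the products within the classes give. *Hand1* and *Plet1* stayed the closest pair at 2.03. From 0.1 TP10k upwards *Elf5* and *Hand1* were the closest, with 64 cells where the product gives 23.2.

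The level went with co-detection. In cells with *Hand1*, *Elf5* where present had a median of 2.46 TP10k, and in cells without *Hand1* one of 0.0789 TP10k. *Plet1* where present stood at 3.02 TP10k with *Hand1* and 0.9499 without, and *Esx1* at 1.18 and 0.321. *Gata2* where present did not follow: it was 0.523 TP10k with *Hand1* and 0.614 without. *Elf5* outside the *Hand1* cells was thus mostly a trace, while *Gata2* was at a like level in both.

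**Figure D3:**
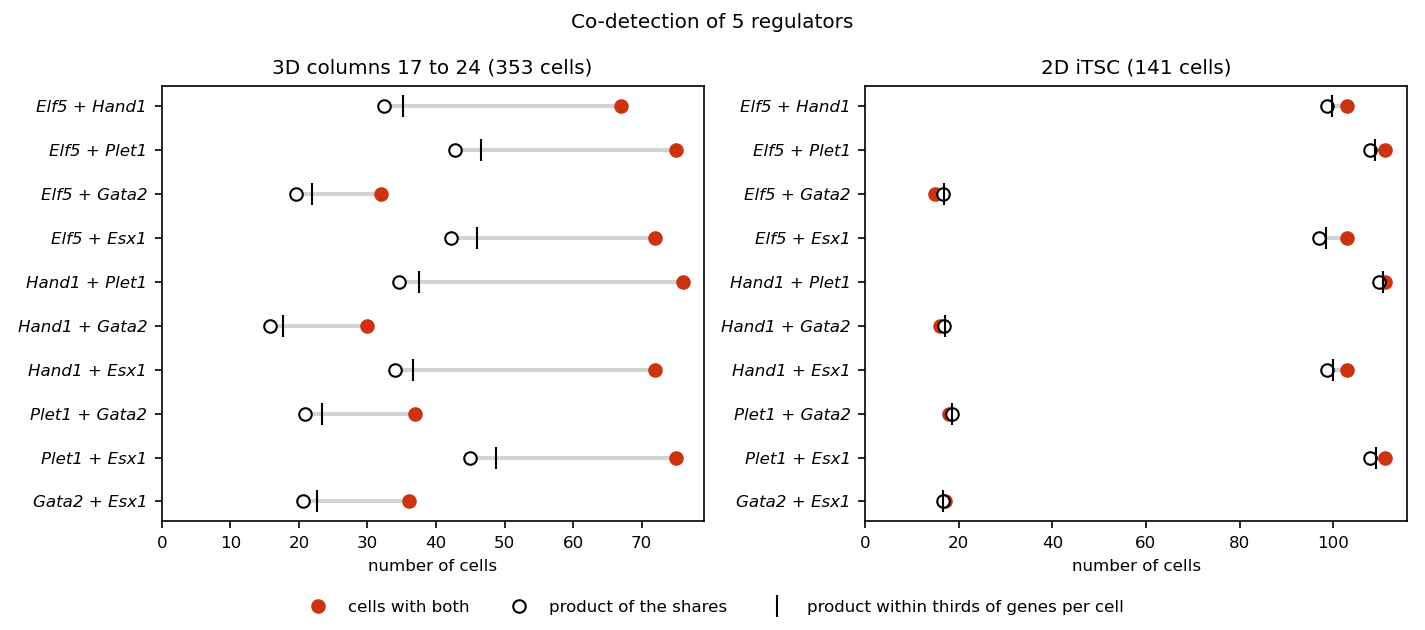
Number of cells with both regulators of a pair (filled), the number that the product of their shares gives (open) and that number summed within 3 classes of the genes per cell (bars), for the 10 pairs among 5 regulators in the ExE wells (left) and iTSC (right). In the ExE wells every filled point lies to the right of both marks, from 30 to 76 cells; in iTSC filled and open points nearly coincide.

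In iTSC the same pairs lay between 0.904 and 1.06 times the product. With shares above 80% for 4 of the 5 genes, a pair of those could not exceed the product by much. *Esx1* was still in 88.03% of iTSC with *Elf5* and in 58.3% of those without. *Gata2* in iTSC was not more frequent with any of *Elf5*, *Hand1* and *Plet1*: it was in 12.8% of cells with *Elf5* and 20.8% without, from 20 cells in all.

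*Elf5*, *Hand1*, *Plet1* and *Esx1* were all 4 in 44 ExE wells (12.5%, 9.20 to 16.4), where the product of the 4 shares gives 4.12 cells. None of the 4 was in 41.6% of the ExE wells (36.4 to 46.98), where the product gives 19.96%. Both shares were similar on plates 3, 4 and 5, at 12.3%, 12.8% and 12.3% for all 4 and 38.5%, 44.4% and 42.1% for none. Of the 77 cells with exactly 1 of the 4, 26 had *Esx1*, 23 *Elf5*, 23 *Plet1* and 5 *Hand1*. *Hand1* alone was thus rare. In iTSC 90 cells (63.8%) had all 4 and 1 had none.

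Of the 7 regulators, at least 3 were above 0 in 29.7% of ExE wells (25.02 to 34.8), 86.5% of iTSC (79.8 to 91.7), 1.90% of VE wells and 0.318% of Epi wells. 2D ESC had 23.2% and iXEN 11.3%, but from 0.1 TP10k upwards no ESC and no iXEN cell had 3, which allows shares of up to 2.11% and 2.13%, while 26.3% of ExE wells and 79.4% of iTSC did. The ExE wells with none had a median of 4832 genes and those with 3 or more one of 5889.

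**Figure D4:**
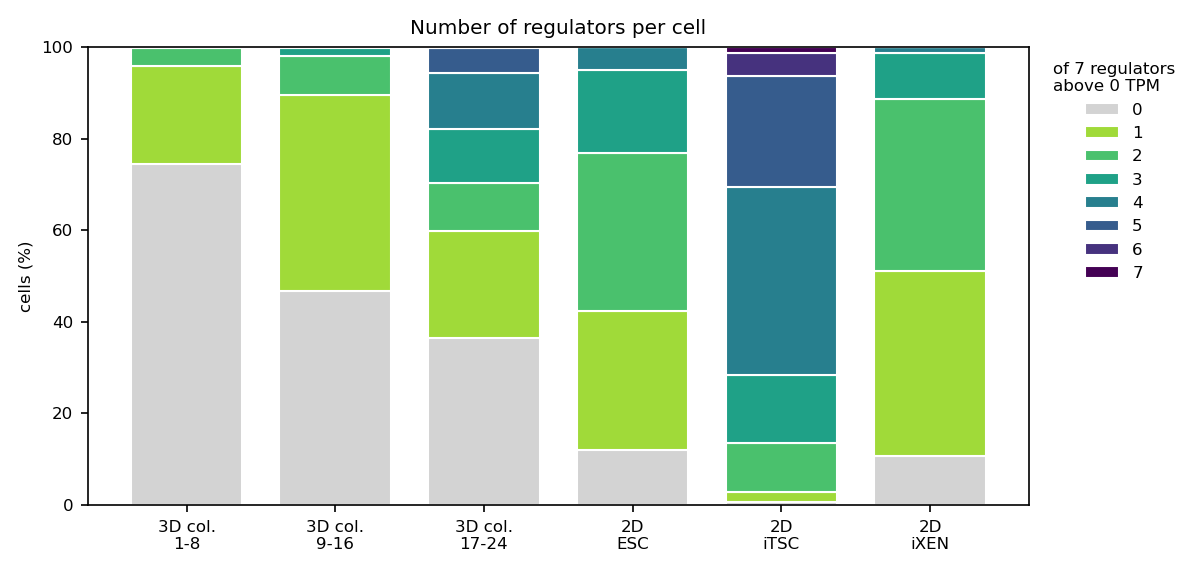
Share of cells (percent) by the number of the 7 regulators above 0 TPM, for the 3 bands of the 3D experiment and the 3 2D cultures. The ExE wells spread from 0 (36.5% of cells) to 6, iTSC centre on 4 (41.1%), and the Epi and VE wells hold mostly 0 or 1.

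The genes most unlike in frequency between ExE wells with and without a regulator were ranked over 11385 genes present in 5 to 95% of these cells, by the difference in share averaged over the 3 classes of genes per cell. For *Hand1* they were *Bmp8b*, a BMP ligand of the ExE (85.4% of cells with *Hand1*, 13.2% without), *Dusp9*, a MAP kinase phosphatase (92.7% and 28.4%) and *Utf1*, a chromatin factor of pluripotent cells (85.4% and 21.8%). For *Elf5* they were the Wnt ligand *Wnt7b* (61.3% and 10.3%), *Sfn*, which encodes the 14-3-3 sigma protein (66.4% and 19.7%), and *Utf1* (71.4% and 22.6%), and *Hand1* came next. For *Plet1* they were *Utf1* (77.2% and 17.7%), *Dusp9* (83.5% and 24.8%) and the de novo DNA methyltransferase *Dnmt3b* (86.6% and 34.1%). For *Esx1* the first was *Hand1* itself (57.6% and 10.5%), before *Bmp8b* (64.8% and 15.4%) and *Utf1* (68.8% and 22.8%). For *Gata2* they included *Dusp9* (87.9% and 37.6%) and *Sfn* (70.7% and 28.5%). *Utf1* thus stood in the first 3 for 4 of the 5 regulators. It is on the Epi list used here, with a mean of 7.88 TP10k in the Epi wells and 2.53 in 2D ESC. In iTSC its mean was 6.32 TP10k, with 98.6% of cells above 0, and in the ExE wells 1.36.

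Other genes of the trophoblast stem cell network were taken from a list of 16. Against the Epi wells 12 of the 16 were called higher in the ExE wells, 1 was called lower (*Sox2*, -1.75, where 5.61% of genes were called lower) and 3 were not called. Their median log2 ratio was 2.67, against 0.0982 over all genes tested. Of all genes tested 9.92% were called higher in that comparison. Against the VE wells 13 were called higher (10.2% of all genes tested) and none lower. The list holds all transgene-encoded factors of the ExE line and genes that were also used as ExE markers. Several genes, such as *Cdx2* and *Gata3*, passed the filter through the ExE wells alone in both comparisons. Both counts are thus no support by themselves. Against iTSC none was called higher (6.42% of all), 13 were not called and 3 were called lower (*Bmp8b*, *Sox2* and *Tead4*, 8.77% of all). *Id2*, an inhibitor of bHLH factors, was the most abundant of the list in the ExE wells at 8.99 TP10k, and it was in 97.9% of cells with *Hand1* and 91.4% of those without.

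By member, 15 of the 16 network genes were more frequent in ExE wells with *Elf5* than without at like numbers of genes (median difference 17.8 percentage points), 13 with *Hand1* (29.1) and with *Esx1* (15.4), 12 with *Gata2* (15.8) and 11 with *Plet1* (12.3). Of all 11386 candidate genes, 6195 were more frequent with *Elf5*, 6333 with *Hand1*, 6527 with *Esx1*, 6065 with *Gata2* and 6263 with *Plet1*. Over all candidate genes the median difference was between 0.639 and 1.37 points. The 5 factors encoded by the transgenes divided: with *Hand1*, *Eomes* differed by 41.6 points, *Tfap2c* by 35.6 and *Ets2* by 22.8, while *Cdx2* (-2.96) and *Gata3* (-2.52) were not more frequent at like numbers of genes. Transcripts of a transgene and of its endogenous gene were not separated in these values. The sort marker gene *Cd40* was in 46.9% of cells with *Hand1* and 40.9% without, a difference of -2.47 points within the classes.

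The VE markers moved with *Plet1* in part. In ExE wells with *Plet1*, 7 of 8 VE markers were more frequent (median 7.77 points), while 0 of 8 were with *Elf5* and 1 of 8 with *Hand1*. Of all 11386 candidate genes, 6263 were more frequent with *Plet1*, 6195 with *Elf5* and 6333 with *Hand1*. *Plet1* was in 12 of the 17 wells that carried other markers, *Elf5* in 2, *Esx1* in 4 and *Hand1* and *Gata2* in none. Without these wells 3 of 8 VE markers were more frequent with *Plet1* (median -0.41 points), and 13 of 16 network genes (18.5 points). The share of all genes was not counted without these wells.

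Markers of later trophoblast were uneven in level and in their calls. Against the Epi wells the share of all genes tested was 9.92% called higher and 5.61% called lower. Of 8 giant cell genes, *Prl3d1*, *Prl2c2* and *Prl3b1* were each in the ExE wells at 0 or under 0.1 TP10k, and *Bhlhe40* and *Lifr* were at 0.239 and 0.238 TP10k. Of the 3 that passed the filter 1 was called higher than in the Epi wells: *Mmp9*, a matrix metalloproteinase (0.204 against 0.0228 TP10k). Of 7 measured ectoplacental cone and spongiotrophoblast genes 4 passed the filter, 1 of which was called higher (*Flt1*, a VEGF receptor) and 1 lower (*Prdm1*). *Phlda2* stood at 1.25 TP10k in the ExE wells and 1.83 in the Epi wells, and *Plac1* at 0.447 in the ExE wells, 0.263 in the VE wells and listed at 0 in the Epi wells. Of 10 syncytiotrophoblast and labyrinth genes 7 passed the filter and 3 of those were called higher, *Cebpa*, the lactate transporter gene *Slc16a1* and *Tfeb*, at 0.0502, 1.502 and 0.575 TP10k in the ExE wells. *Mmp9*, *Flt1* and *Cebpa* passed the filter through the ExE wells alone, so these counts are no support by themselves. *Slc16a1* was higher still in the VE wells (1.96 TP10k), and *Ly6e* was at 0.553 TP10k in the ExE wells and 1.23 in the Epi wells. Among the relatives of the regulators, *Gata1* was at 0.395 TP10k in the ExE wells and 0.463 in iTSC and at no more than 0.0213 in the other groups, while *Hand2*, *Gcm2*, *Tfap2b*, *Tfap2d* and *Tfap2e* stayed under 0.01 in all 6.

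The genes most like each regulator were found by the correlation of log2(mean TP10k + 0.1) over 12 points, the 9 combinations of band and plate and the 3 2D cultures. These points share libraries and are given as a description. *Elf5* was nearest to *Esx1* (r = 0.989), then *D330045A20Rik* (0.980) and *Gata1* (0.975), and *Hand1* stood at rank 8 of 14182 genes (0.968). *Esx1* was nearest to *Elf5*, *Gata1* (0.986) and *Cd83* (0.980). Among the genes nearest to *Hand1* were *Tox2* (0.982) and *Lgals1* (0.981). *Plet1* was nearest to *Tmem185a* (0.985), *Unc5b* (0.978) and *Clic4* (0.970), each with a level in the VE wells as well. *Gata2* was nearest to *Atp8b1* (0.989), *Hoxa9* (0.988) and *Aqp9* (0.988), and *Hoxa9* stood at 0.412 TP10k in the ExE wells and 0.0679 in iTSC. For *Tfap2a* (*Vmn1r83*, *Tmprss11g*, *Incenp*) and *Gcm1* (*Chd3os*, *Usp20*, *Tmem56*) the values lie far below the 0.1 added, and the likeness rests on differences of under 0.02 TP10k of the regulator.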

How the data were processed

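Single cells were sorted into 384-well plates and sequenced with SMART-seq2. Per the study's methods the authors quantified reads with kallisto against GRCm38 transcripts (Gencode), summed transcripts to genes with tximport and deposited TPM values without mitochondrial, ribosomal and pseudogene rows; read counts were not used here, and the submitters' processing notes also name bcl2fastq 2.20 and Seurat. The deposited TPM were read without change, wells entered as cells if 2500 or more genes had a value over 0, and values were rescaled to 10000 per cell (TP10k). Doublets were not called; 1 well was taken as 1 cell. Groups follow the plate columns (3D) and titles (2D). The members and gene lists were chosen with earlier results of these data known. Named genes are the members, listed genes that were called or are transgene-encoded, the 3 genes most like each member over 12 points and the 3 most different in share between ExE wells with and without it (some are not reported here); single listed genes shown as examples were picked after their values were seen. Shares have exact Clopper-Pearson 95% intervals, and a share of 0 the limit of 3 cells. Calls need a 2-fold ratio of means on every plate. With 1 sample per group there is no test. The calls and co-detection were tested on simulated data. Alternatives changed the gene minimum, plates, wells, detection limit, scale, filter and fold. Python 3.11.15, numpy 2.4.6, pandas 2.3.3, scipy 1.17.1 and matplotlib 3.10.9 were used.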

Additional observations from a re-analysis of the deposited data

Results flagged for a closer look

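Wells with fewer than 2500 genes above 0 were used in no comparison, and a signal of the regulators was looked for in them. Of 68 such VE wells, 4 (5.88%) had a regulator above 0, *Plet1* in each, against 0 of 68 Epi wells, where a count of 0 allows up to 4.41%. Of such iTSC wells, 4 (3.12%) had one, *Hand1* in 2, *Plet1* in 2 and *Esx1* in 1, above the 2.34% that a count of 0 allows there. Of 31 such ExE wells, 3 (9.68%) had one, *Plet1*, *Tfap2a* and *Esx1* in 1 each, which equals the 9.68% that a count of 0 allows and so did not exceed it. The VE and iTSC wells had a median of 24 and 4 genes above 0, and whether they held a cell was not tested.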

How the results depend on the processing

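No result reversed its direction where it was called. Of 1227 values recomputed under alternatives 1051 stayed within the limit set for each. This total is no support by itself. It counts values of the ESC, iTSC and iXEN cultures, which leaving out wells or plates of the RtL-embryoids could not change. All 100 recomputed co-detection ratios of the 10 pairs in the ExE wells were above 1 (1.32 to 2.76). No paired analysis was possible because each group is 1 sample. Leaving out plate 3, 4 or 5 moved no ExE share, ExE ratio or co-detection ratio of *Elf5*, *Hand1*, *Plet1*, *Gata2* and *Esx1* beyond its limit. For ratios and co-detection that limit comes from the same plates, so a move was unlikely from the outset. The *Tfap2a* log2 ratio of ExE to VE wells did move, to 1.14 without plate 5, and so did some shares of VE wells. Read depth is unknown, since TPM does not keep it; genes above 0 stood in for it. Where a value below moved, the cause was not tested.

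With 0.1 TP10k added to both means, the log2 ratios of the ExE wells to the Epi wells were 2.69 (*Elf5*), 3.18 (*Hand1*), 1.44 (*Gata2*) and 2.18 (*Esx1*), those to the VE wells 3.06 (*Hand1*), 1.45 (*Gata2*) and 2.23 (*Esx1*), and that of *Gata2* to iTSC 0.89. As differences of mean log2(TP10k + 1) the values were 0.38, 0.45, 0.49, 0.14 and 0.30 against the Epi wells (*Elf5*, *Hand1*, *Plet1*, *Gata2*, *Esx1*), 0.37, 0.44, 0.20, 0.14 and 0.30 against the VE wells, and 0.0855 for *Gata2* against iTSC. On TPM as deposited *Plet1* against iTSC was -0.46.

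In cells with 5000 to 8000 genes the shares of ExE wells were 40.8% (*Elf5*), 33.2% (*Hand1*), 43.6% (*Plet1*), 21.8% (*Gata2*) and 41.2% (*Esx1*), the log2 ratios to iTSC -0.37 (*Plet1*) and 0.95 (*Gata2*), and the co-detection ratios 1.72 (*Elf5* and *Hand1*), 1.57 (*Elf5* and *Plet1*), 1.47 (*Elf5* and *Esx1*), 1.90 (*Hand1* and *Plet1*), 1.84 (*Hand1* and *Esx1*), 1.65 (*Plet1* and *Gata2*) and 1.40 (*Plet1* and *Esx1*). Within 3 classes by the number of genes 3 of them were 1.90 (*Elf5* and *Hand1*), 2.03 (*Hand1* and *Plet1*) and 1.58 (*Plet1* and *Gata2*). Detected from 0.1 TP10k, a limit chosen after seeing the data, *Elf5* was in 24.6% of ExE wells, and the ratios were 2.76 (*Elf5* and *Hand1*), 2.16 (*Elf5* and *Plet1*), 2.03 (*Elf5* and *Esx1*) and 2.31 (*Hand1* and *Plet1*). *Hand1* and *Plet1* stood at 2.03 with a minimum of 4000 genes and at 2.31 without the 17 wells with other markers, also left out after seeing the data.

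Without the 44.2% of wells whose ExE list lay below another, the shares were 44.7% (*Elf5*), 39.6% (*Hand1*), 44.7% (*Plet1*), 24.9% (*Gata2*), 43.7% (*Esx1*) and 44.7% for at least 3 regulators. The log2 ratios to the VE wells were 8.19 (*Hand1*) and 2.01 (*Plet1*), those to iTSC 0.17 (*Elf5*), -0.48 (*Hand1*), -0.11 (*Plet1*) and 2.35 (*Gata2*), and the co-detection ratios 1.78 (*Elf5* and *Hand1*), 1.51 (*Elf5* and *Esx1*), 1.84 (*Hand1* and *Plet1*), 1.34 (*Hand1* and *Gata2*), 1.76 (*Hand1* and *Esx1*) and 1.55 (*Plet1* and *Gata2*). *Elf5* against iTSC, which was not called, changed its sign here.

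The number of genes called, given here as a percent of the genes tested because the filter sets that number too, moved with the filter and the fold. With a 4-fold limit 3.81% of genes were higher and 2.67% lower than in the Epi wells, 4.33% higher than in the VE wells, 1.88% higher and 2.41% lower than in iTSC, and iTSC had 8.78% higher than ESC and 8.71% higher than iXEN. With genes above 0 in at least 25% of cells, 4.45% were lower than in the Epi wells, 7.87% (684 genes) higher than in the VE wells, 6.43% (681) lower than in iTSC, and 16.1% (1795) higher in iTSC than in iXEN. With no filter 5.79% (1068) were lower than in the Epi wells, 9.67% (1787) higher than in the VE wells, 19.8% (3864) lower than in iTSC, and iTSC had 32.5% (6413) higher than ESC and 31.3% (6187) higher than iXEN. As reported, those 5 counts were 611, 1105, 1141, 3081 and 2837 in the same order. The number of regulators called higher than in iTSC was 0 with a 4-fold limit, with the 25% filter and with a minimum of 4000 genes, so the *Gata2* call depends on these settings.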
